A study of Mus musculus with 4 samples.

Results

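*Nrxn3*, *Nlgn1*, *Lsamp*, *Ntm*, *Opcml*, *Cadm2*, *Csmd1*, *Ctnna2*, and *Nkain2* are 9 very long genes, most of which encode proteins that hold neuronal membranes together at synapses and growing axons. They were taken as a named list, chosen with earlier results of these data known. They make up 9 of the 17419 genes listed for at least 1 of 4 mouse neural stem cell (NSC) lines. The lines were derived from epiblast stem cells of strain 129/Sv and all were grown in a medium with N-2 and B-27 supplements and with EGF and FGF2, each at 10 ng/ml. XN4 and XN1 also received 10 µM XAV939, a tankyrase inhibitor that lowers Wnt signaling, KN1 received no Wnt reagent, and CN4 received 2 µM CHIR99021, a GSK3 inhibitor that raises Wnt signaling. XAV939 came from supplier B for XN4 and from supplier A, where crystals formed, for XN1. Dissociated cells were kept in the preservative CellCover, and their transcriptomes were captured on BD Rhapsody beads with 1 library for each line. Each line was thus 1 culture without replicates. No difference between lines could be tested, and the condition, the line, and the library cannot be told apart. All intervals are 95% counting intervals within 1 library. Those of shares of cells count cells. Those of reads treat each read as independent, but reads and not unique molecules were counted, so they are too narrow.

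Neurexins on the axon terminal bind neuroligins on the receiving cell, and this pairing across the cleft helps to organize both sides of a synapse. The IgLON proteins and the CADM proteins are immunoglobulin-like surface proteins that bind across and along neuronal membranes, and αN-catenin ties cadherins to the actin cytoskeleton. These genes are best known from postmitotic neurons, and they are among the longest genes of the mouse genome because of their very long introns.

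All 9 genes were long in the GRCm38 annotation (GENCODE vM21), with spans from 906 kb for *Nlgn1* to 2197 kb for *Lsamp*, against a median span of 25.8 kb over 17316 listed genes. Only 0.456% of the listed genes spanned at least 900 kb. The longest annotated transcript covered between 0.313% of the span for *Nkain2* and 1.30% for *Nlgn1*, so nearly all of each gene was intron. *Nrxn3* (ENSMUSG00000066392.11) lies at chr12:88722876-90334935 on the plus strand and *Nlgn1* (ENSMUSG00000063887.13) at chr3:25426215-26332460 on the minus strand. *Lsamp* (ENSMUSG00000061080.11) lies at chr16:39984361-42181679 on the plus strand and *Cadm2* (ENSMUSG00000064115.13) at chr16:66655421-67620908 on the minus strand. *Csmd1* (ENSMUSG00000060924.15) lies at chr8:15892537-17535586, *Ctnna2* (ENSMUSG00000063063.12) at chr6:76881637-77979699, and *Nkain2* (ENSMUSG00000069670.8) at chr10:31689310-32890462, all on the minus strand. *Opcml* (ENSMUSG00000062257.13, chr9:27790775-28925410, plus strand) and *Ntm* (ENSMUSG00000059974.10, chr9:28994750-29963141, minus strand) are neighbors that point toward each other, and 69.3 kb separates their 3′ ends. No gene on the same strand inside any of the 9 spans was captured in 1% of the cells of a line. Among genes on the opposite strand, A830092H15Rik within *Nlgn1* was listed in CN4 alone, in 1.04% of cells, and *Lrrtm1* within *Ctnna2* was captured in 14.2% of CN4 cells and in 0.629% of KN1 cells. In CN4 cells thinned to 3200 reads, *Ctnna2* was captured in 12.3% of the 308 with an *Lrrtm1* read (interval 8.88% to 16.5%) and in 8.42% of the 2850 without one (7.43% to 9.50%), and these intervals overlapped. Without thinning the shares were 22.4% of 491 cells (18.8% to 26.4%) and 12.8% of 2957 cells (11.6% to 14.0%), which did not overlap, with the depth of the cells not held equal. How strand was used in counting is not given in the sources used here, so a part of the CN4 reads of *Ctnna2* may belong to the opposite strand.

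The tables held 3927 XN4, 3905 XN1, 3975 KN1, and 3448 CN4 cells, with 41539513, 19271688, 27563145, and 22947874 reads. Between 14 and 21 cell labels were shared by any pair of libraries, and no doublet caller was run. The KN1 library stood apart. Its cells held a median of 833 genes, against 2257 to 2824 in the other lines, and 765 against 1648 to 1849 after every cell was thinned to 3200 reads. A captured gene had a mean of 7.39 reads per cell in KN1 and 2.14 to 3.90 in the other lines. Genes of at least 300 kb took 14.0% of KN1 reads and 2.97% to 3.28% elsewhere, and the nuclear RNA *Malat1* was at 32026 RPM (reads of a gene per 1000000 reads of the library) in KN1 against 3280 to 14187. The NSC label was checked with 10 neural progenitor genes. All 10 were listed in KN1 and CN4 and 9 in XN1, but in XN4 *Sox1*, *Fabp7*, and *Hes5* were not listed, *Sox2* was captured in 0.560% of cells, and the collagen gene *Col3a1* in 97.8%. Before thinning, KN1 was low in several of them, with *Sox1* in 0.377% of cells and *Sox2* in 13.9%, against 62.2% for *Sox2* in XN1 and 83.9% in CN4. *Vim* was captured in 40.5% of KN1 cells and in 84.4% or more elsewhere. Others were not low in KN1. *Nes* was highest there, at 655 RPM against 25.4 in XN4, 372 in XN1, and 514 in CN4. *Pax6* was at 44.8 RPM in KN1, 45.7 in XN1, and 45.9 in CN4. Of the 10, 6 were 2-fold lower in RPM in KN1 than in CN4 and 0 higher, against 22.0% and 19.4% of all genes compared. Over XN1, 4 of 9 were lower and 1 higher, against 23.8% and 23.2%. Over XN4, 6 of 9 were higher, against 19.8%, and 1 was lower. Only genes in at least 1% of the cells of either line were compared, so *Sox1* over CN4 and 4 of the 6 over XN4 had to differ in capture. Of 11 neuron markers, 3 to 9 reached 1% of the cells of a line and at most 2 reached 10%. Those 2 were *Map2*, captured in 4.84% of XN4, 88.8% of XN1, 67.9% of KN1, and 85.7% of CN4 cells, and *Gap43*, captured in 30.5% of XN1, 5.61% of KN1, and 23.6% of CN4 cells and not listed in XN4. Each of the other 9, *Tubb3* and *Dcx* among them, was captured in under 10% of the cells of every line. The 11 markers summed to 1786 RPM in KN1, 895 in XN1, 739 in CN4, and 51.4 in XN4. *Map2* gave most of this in KN1, XN1, and CN4, and without it the sums were 198, 160, 134, and 39.3 RPM in the same order. Their part in the values of the 9 genes was not tested.

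Across the 9 genes together, reads made up 0.0270% of the XN4 library, 0.0477% of XN1, 0.656% of KN1, and 0.0737% of CN4. At least 1 of the 9 was captured in 65.5% of XN4 cells, 75.0% of XN1 cells, 90.1% of KN1 cells, and 89.4% of CN4 cells. KN1 and CN4 were thus alike in this share before depth was considered, while their shares of reads were far apart. After thinning to 3200 reads the shares were 45.6%, 64.8%, 91.0%, and 75.7%. Most capturing XN4 and XN1 cells had reads of a single member (38.0% and 42.0% of all cells), whereas 25.4% of KN1 cells and 29.6% of CN4 cells had 2 members and 24.0% and 20.0% had 3. Of the 180875 reads of the 9 genes in KN1, *Nkain2* alone gave 94662.

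**Figure D1:**
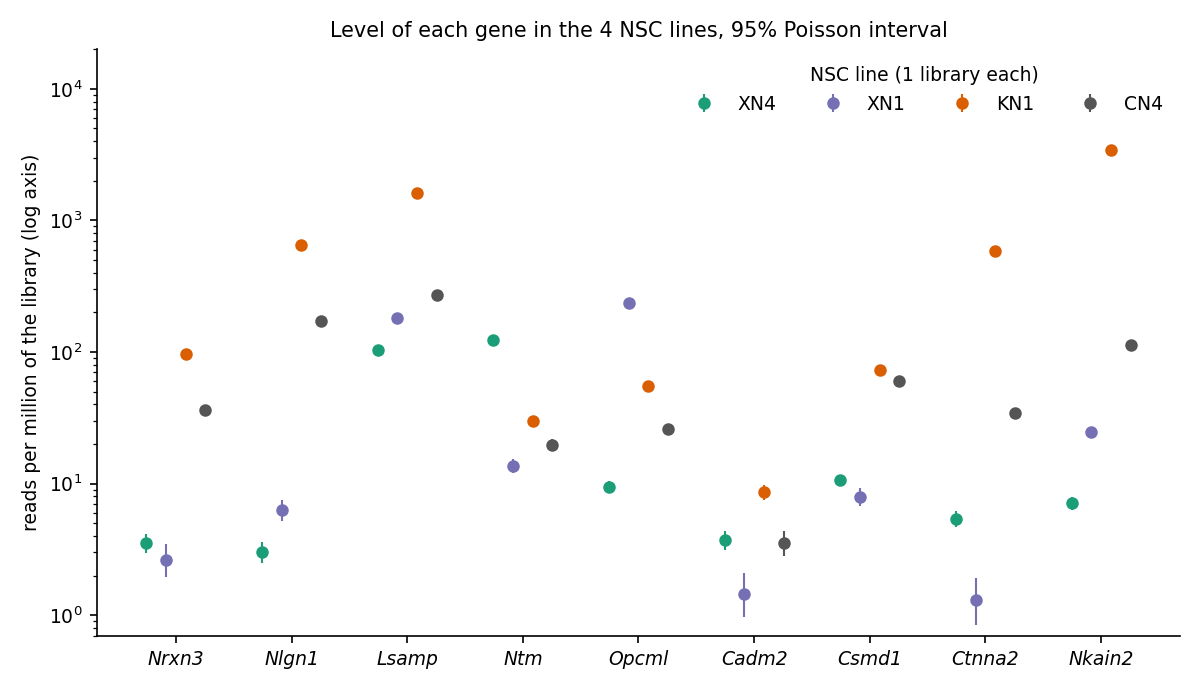
Level of each of the 9 genes in RPM (log axis) in XN4, XN1, KN1, and CN4; points are the value of the 1 library of each line and bars the 95% Poisson interval. KN1 is the highest line for 7 of the 9 genes; *Ntm* is highest in XN4 at 124 and *Opcml* in XN1 at 237.

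*Nrxn3*, which encodes a presynaptic neurexin, was at 3.51 RPM in XN4 (interval 2.97 to 4.13), 2.65 in XN1 (1.97 to 3.48), 96.1 in KN1 (92.5 to 99.9), and 36.3 in CN4 (33.9 to 38.9). KN1 and CN4 were both far above the XAV lines, whose intervals overlapped. The share of capturing cells separated the same pairs, with 3.36% for XN4 and 1.08% for XN1 against 11.2% for KN1 and 11.6% for CN4. KN1 and CN4 thus had *Nrxn3* reads in nearly the same share of cells, and the gap in RPM lay in the reads per capturing cell, 5.93 in KN1 and 2.08 in CN4.

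*Nlgn1*, the postsynaptic neuroligin that binds neurexins, was at 3.01 RPM in XN4 (2.50 to 3.59), 6.28 in XN1 (5.21 to 7.50), 649 in KN1 (640 to 659), and 172 in CN4 (166 to 177). It was captured in 2.98%, 2.61%, 37.1%, and 49.5% of cells, but after every cell was thinned to 3200 reads the shares were 34.5% in KN1 (32.9% to 36.1%) and 32.7% in CN4 (31.1% to 34.4%), which overlapped. A capturing KN1 cell held 12.1 *Nlgn1* reads on average and a median of 9, while a capturing CN4 cell held 2.31 and a median of 2. In XN4 and XN1, 93.2% and 85.3% of capturing cells had a single read.

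The 3 IgLON genes had 3 different patterns. *Lsamp*, which encodes the limbic system-associated membrane protein, was at 103 RPM in XN4 (99.9 to 106), 181 in XN1 (175 to 188), 1626 in KN1 (1611 to 1641), and 271 in CN4 (264 to 278). It was captured in 29.4% of XN4 cells, 41.8% of XN1 cells, 59.6% of KN1 cells, and 60.8% of CN4 cells. By this share *Lsamp* was the most evenly distributed of the 9 genes, and its values in KN1 and CN4 had overlapping intervals (58.0% to 61.1% and 59.1% to 62.4%).

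*Opcml*, the IgLON named for opioid-binding protein, was at 9.46 RPM in XN4 (8.55 to 10.4), 237 in XN1 (231 to 244), 54.9 in KN1 (52.2 to 57.7), and 26.2 in CN4 (24.1 to 28.4). It was captured in 51.9% of XN1 cells and in only 6.21% of XN4, 7.12% of KN1, and 9.63% of CN4 cells. XN1 was therefore the line of high *Opcml* by both readouts, although KN1 held more reads for long genes in general. Its neighbor *Ntm*, which encodes neurotrimin, was at 124 RPM in XN4 (121 to 128), 13.7 in XN1 (12.1 to 15.5), 29.8 in KN1 (27.8 to 31.9), and 19.8 in CN4 (18.0 to 21.7). *Ntm* was captured in 38.4% of XN4 cells and in 5.33% of XN1, 5.33% of KN1, and 7.92% of CN4 cells. The XAV lines thus differed in opposite directions at these neighboring genes: *Ntm* was 8.53-fold higher in XN4 and *Opcml* 22.8-fold higher in XN1, both on the log2(RPM + 1) scale.

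The start regions of these neighbors are shown because the genes share a chromosome stretch and a family but not a pattern across lines. RefSeq (GRCm38.p6) places the *Opcml* start window, 250 bases before to 50 after the start, at chr9:27791049-27791348 on the plus strand. For *Ntm* it gives a pair of start windows inside the GENCODE span, neither of them near the 5′ end of that span (chr9:29963141). The one at chr9:29412636-29412935 on the minus strand is shown. Capitals mark CG dinucleotides, of which these windows hold 9 and 19, against a median of 7 over 32851 RefSeq windows, and 2 in the other *Ntm* window at chr9:29413403-29413702.
Opcml: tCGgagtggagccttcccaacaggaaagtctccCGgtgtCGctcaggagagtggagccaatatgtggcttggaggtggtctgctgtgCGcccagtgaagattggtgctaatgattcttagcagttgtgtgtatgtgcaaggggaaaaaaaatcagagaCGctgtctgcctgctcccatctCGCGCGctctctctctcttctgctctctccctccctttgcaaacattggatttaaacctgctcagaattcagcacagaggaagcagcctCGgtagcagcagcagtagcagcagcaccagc
Ntm: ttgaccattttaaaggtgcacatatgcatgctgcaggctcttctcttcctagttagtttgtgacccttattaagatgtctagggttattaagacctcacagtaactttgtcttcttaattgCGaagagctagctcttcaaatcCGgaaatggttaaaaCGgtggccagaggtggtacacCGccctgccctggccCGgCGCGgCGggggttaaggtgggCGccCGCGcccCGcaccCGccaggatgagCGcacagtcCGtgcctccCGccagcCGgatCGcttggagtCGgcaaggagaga

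**Figure D2:**
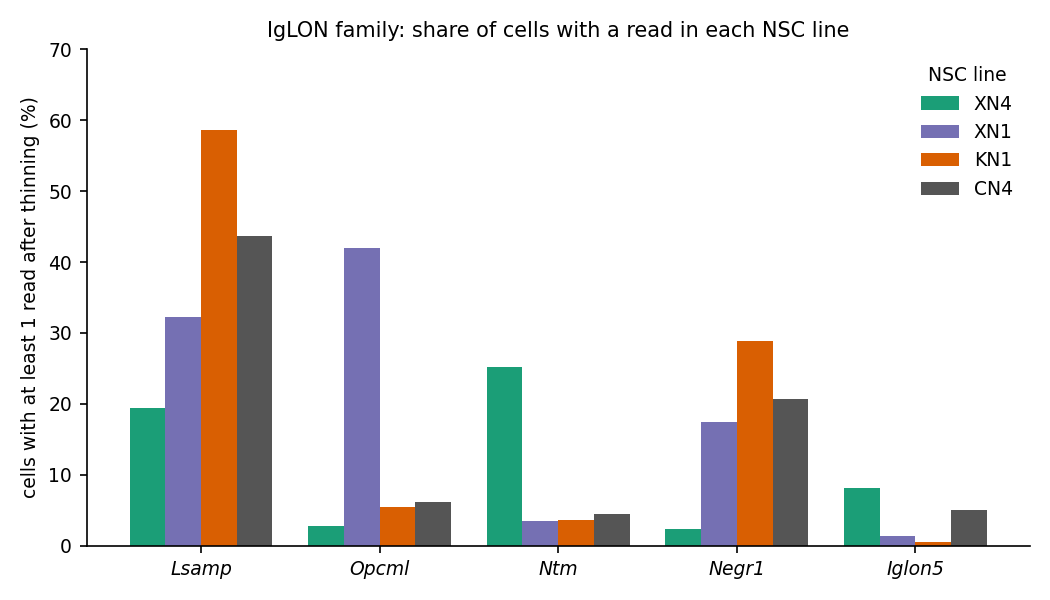
Share of cells with at least 1 read (%) of each IgLON family gene in XN4, XN1, KN1, and CN4 after thinning every cell to 3200 reads; each bar is 1 library. *Opcml* stands out in XN1 at 42.0%, *Ntm* in XN4 at 25.2%, and *Lsamp* is above 19% in every line.

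*Cadm2*, which encodes a synaptic immunoglobulin-like adhesion protein, was the lowest of the 9 per kb of span in KN1 and CN4. It was at 3.71 RPM in XN4 (3.14 to 4.34), 1.45 in XN1 (0.965 to 2.10), 8.60 in KN1 (7.54 to 9.77), and 3.53 in CN4 (2.80 to 4.39). XN4 and CN4 could not be told apart within counting error, and XN1 rested on 28 reads. It was captured in 3.39%, 0.615%, 4.38%, and 1.89% of cells. Of the capturing KN1 cells, 87.4% had a single *Cadm2* read, against a median of 24.0% (5th to 95th percentile 16.1% to 43.5%) over the genes captured in 3% to 5% of KN1 cells and 63.6% for those of them that spanned at least 300 kb. *Cadm2* reads in KN1 were thus mostly isolated reads, unlike those of most genes captured as often.

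*Csmd1*, which encodes a transmembrane protein with CUB and sushi domains and is linked to complement regulation, was at 10.6 RPM in XN4 (9.65 to 11.7), 7.94 in XN1 (6.73 to 9.30), 73.6 in KN1 (70.5 to 76.9), and 60.5 in CN4 (57.3 to 63.8). Its capture was highest in CN4, with 17.7% of cells (16.4% to 19.0%), against 9.76% in KN1 (8.86% to 10.7%), 8.17% in XN4, and 3.20% in XN1. KN1 and CN4 therefore changed order between reads and cells.

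*Ctnna2*, which encodes αN-catenin, the neural α-catenin, was at 5.39 RPM in XN4 (4.71 to 6.15), 1.30 in XN1 (0.840 to 1.91), 590 in KN1 (581 to 599), and 34.3 in CN4 (31.9 to 36.8). It was captured in 3.44%, 0.640%, 30.3%, and 14.2% of cells, and all 25 capturing XN1 cells had a single read. KN1 was highest by reads and by cells, and CN4 stood between KN1 and the XAV lines. *Nkain2*, which encodes a membrane protein that binds the sodium pump and is not itself known as an adhesion receptor, was at 7.08 RPM in XN4 (6.29 to 7.93), 24.8 in XN1 (22.6 to 27.1), 3434 in KN1 (3413 to 3456), and 114 in CN4 (110 to 118). It was captured in 5.88%, 7.84%, 70.2%, and 30.3% of cells. The lines kept the order KN1, CN4, XN1, XN4 in both readouts, and 74.1% of the capturing KN1 cells held at least 10 *Nkain2* reads against 1.91% of those in CN4.

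*Nkain2* and *Ctnna2* were the members at least 2-fold higher in KN1 than in every other line both in RPM and in the share of cells after thinning, and their start windows, shown for this reason, were also the richest in CG dinucleotides. The *Nkain2* window (RefSeq, GRCm38.p6, chr10:32889866-32890165, minus strand) holds 43 of them and is 78.7% G or C. The *Ctnna2* window (chr6:77979618-77979917, minus strand) holds 38 and is 75.3% G or C. Of the 32851 windows, 97.4% held fewer than the *Nkain2* window. The other windows of members held 2 to 19. In total 8 of the 9 genes had 13 windows, and *Csmd1* had none in the table. The motif TATAAA on either strand was in 0 of the 13, and in 13.6% of all windows. Capitals again mark CG.
Nkain2: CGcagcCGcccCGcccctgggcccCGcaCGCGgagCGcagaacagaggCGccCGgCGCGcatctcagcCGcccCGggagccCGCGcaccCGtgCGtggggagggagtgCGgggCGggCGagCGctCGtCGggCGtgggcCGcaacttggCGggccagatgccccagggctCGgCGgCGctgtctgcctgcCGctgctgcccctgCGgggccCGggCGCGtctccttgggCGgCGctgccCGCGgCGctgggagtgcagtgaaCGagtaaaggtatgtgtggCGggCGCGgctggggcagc
Ctnna2: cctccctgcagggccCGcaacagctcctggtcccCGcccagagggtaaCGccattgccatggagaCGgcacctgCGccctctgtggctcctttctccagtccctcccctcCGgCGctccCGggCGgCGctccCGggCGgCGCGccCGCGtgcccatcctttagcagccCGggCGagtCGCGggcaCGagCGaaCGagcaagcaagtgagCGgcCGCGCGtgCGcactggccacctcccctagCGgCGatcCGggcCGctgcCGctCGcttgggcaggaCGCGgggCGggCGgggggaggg

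Levels were compared between genes as RPM per kb of genomic span, since reads in introns were counted in XN4, XN1, and CN4. The same divisor was used for KN1, whose intron setting is not given in the sources used here. Whether reads scale with span was not tested. The leading gene differed in each line. XN4 was led by *Ntm* (0.128 RPM per kb), XN1 by *Opcml* (0.209), KN1 by *Nkain2* (2.86), and CN4 by *Nlgn1* (0.190). *Lsamp* was second in every line, with 0.0469, 0.0826, 0.740, and 0.123 RPM per kb. In KN1 the 4 genes *Nkain2*, *Lsamp*, *Nlgn1* (0.716), and *Ctnna2* (0.537) were far above the other 5, which lay between 0.00891 and 0.0596. Per kb of the longest transcript the leading gene was the same in XN4, XN1, and KN1, but in CN4 *Lsamp* (30.8) and *Nkain2* (30.3) passed *Nlgn1* (14.5). In undivided RPM *Lsamp* (271) also led *Nlgn1* (172) in CN4, and the leading gene of each other line was again the same.

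How far KN1 exceeded the other lines was then described by the log2 ratio of RPM + 1, over genes captured in at least 1% of the cells of either line. A ratio of at least 2-fold in favor of KN1 was reached by 8 of the 9 genes over XN4, where 19.8% of all 13177 genes compared did so. It was reached by 8 of 9 over XN1 (23.2% of 12479 genes) and by 7 of 9 over CN4 (19.4% of 12581 genes). Of the other genes of at least 300 kb, 80.4% reached it over XN1 and 76.6% over CN4, near the shares of the members. Over XN4, 66.1% of other genes of 300 to 1000 kb and 73.6% of those of 1000 kb or more did. The exceptions were *Ntm* over XN4 (log2 ratio −2.03), *Opcml* over XN1 (−2.09), and *Ntm* (0.56) and *Csmd1* (0.28) over CN4. *Nrxn3*, *Nlgn1*, *Lsamp*, *Cadm2*, *Ctnna2*, and *Nkain2* were 2-fold higher in KN1 than in all 3 other lines, 6 of 9 against 11.8% of all genes, and *Cadm2* lost this call with a pseudocount of 5. *Cadm2* and *Ctnna2* passed the 1% filter over XN1 only through KN1, so their capture had to differ in that comparison. In the other comparisons with KN1, the members were captured in at least 1% of the cells of both lines.

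The median log2 ratio of the 9 genes was 3.97 over XN4, 3.16 over XN1, and 1.38 over CN4. The median over all genes compared was −0.13, −0.04, and −0.11. For other genes of 1000 kb or more it was 1.70, 2.32, and 1.97. The members' median was thus above that of such genes over XN4 and XN1. Over CN4 it was below it, and also below the 1.90 of other genes of 300 to 1000 kb. Among the members, the largest ratios belonged to *Nkain2* over XN4 (8.73) and *Ctnna2* over XN1 (8.01). *Ctnna2* had 25 reads in XN1 and passed the filter there only through KN1, so its ratio over XN1 is a description. Over CN4, only *Nkain2* (4.90) and *Ctnna2* (4.07) exceeded 3, and *Lsamp* (2.58), *Nlgn1* (1.91), *Nrxn3* (1.38), *Cadm2* (1.08), and *Opcml* (1.04) followed.

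The share of capturing cells gave a different account of KN1 and CN4. After thinning, 70.9% of KN1 cells (69.3% to 72.4%) had a read of *Nkain2*, against 20.0% in CN4 (18.7% to 21.5%). For *Ctnna2* these shares were 28.9% (27.4% to 30.4%) and 8.80% (7.84% to 9.85%). *Lsamp* was captured in 58.6% and 43.7%, *Nlgn1* in 34.5% and 32.7%, *Nrxn3* in 8.72% and 7.54%, and *Cadm2* in 2.15% and 1.01%. *Opcml* was captured in 5.45% and 6.21% and *Ntm* in 3.59% and 4.43%, while *Csmd1* was more often captured in CN4 (6.77% and 11.5%). By this readout the members that were 2-fold higher in KN1 than in all other lines were *Ctnna2* and *Nkain2* alone, 2 of 9, where 3.02% of the 11889 genes and 19.6% of the 567 other genes of at least 300 kb were. The median log2 ratio of the 9 over CN4 was 0.21 in these shares. Among other genes this median was −1.67 under 10 kb, 0.78 at 300 to 1000 kb, and 0.92 at 1000 kb or more. For *Nlgn1*, *Nrxn3*, *Ntm*, and *Opcml*, the intervals of KN1 and CN4 overlapped. The thinned shares of *Cadm2* in XN4, XN1, and CN4 and of *Nrxn3* and *Ctnna2* in the XAV lines were all at 1.54% or less, and whether such reads came from the cells themselves was not tested.

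The reads per capturing cell differed between the libraries for genes in general. Genes captured in 5% to 10% of cells had a median of 5.49 reads per capturing cell in KN1 and 1.33 in CN4, and those captured in 20% to 50% had 7.62 and 1.62. Against genes captured at a like rate in KN1, *Nlgn1* (12.1 reads) and *Ctnna2* (13.5) were above the 95th percentile of 11.4, and *Nkain2* (33.9) was above the 26.7 of genes captured in 50% or more. *Nrxn3*, *Opcml*, *Csmd1*, and *Lsamp* were within the 5th to 95th percentile. *Ntm* (3.87) and *Cadm2* (1.36) were below it. These 4, 3, and 2 members thus stood within, above, and below the range of genes of any length captured as often. In KN1, genes captured in 3% to 5%, 5% to 10%, 20% to 50%, and 50% or more had medians of 5.16, 5.49, 7.62, and 13.8 reads. For other genes of at least 300 kb these were 3.74, 5.76, 9.44, and 15.2. The range of long genes alone was not taken.

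**Figure D3:**
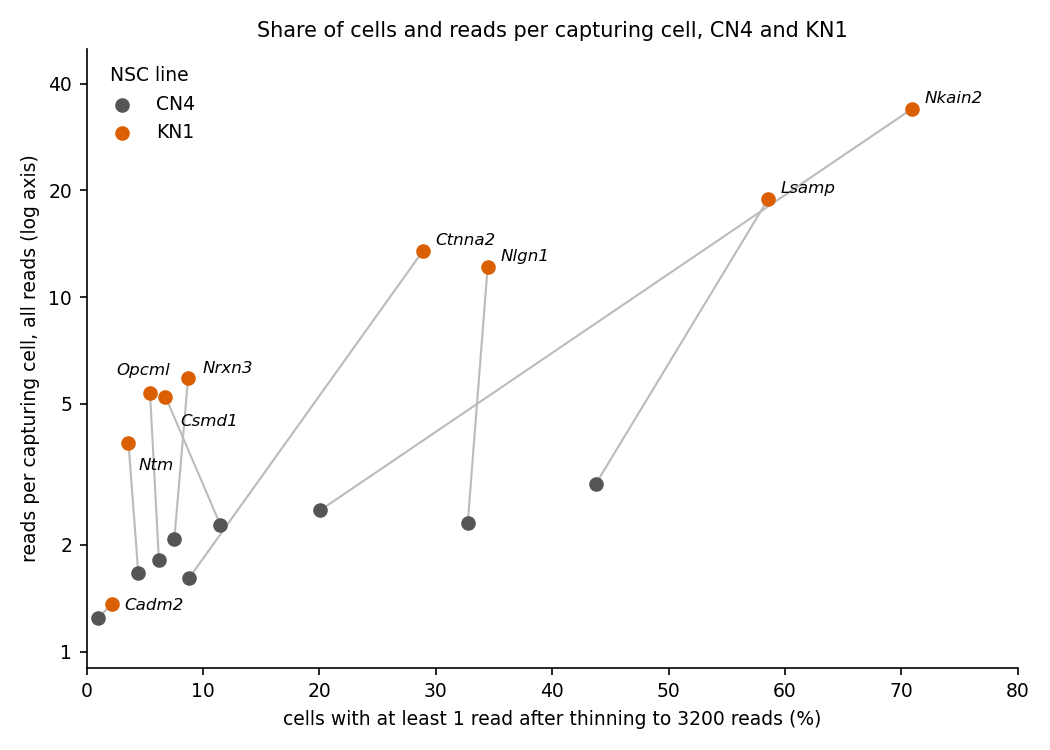
Cells with at least 1 read after thinning to 3200 reads (%, horizontal axis) against all reads per capturing cell (vertical log axis) for the 9 genes; grey points are CN4 and orange points KN1, joined for each gene, with 1 library per line. All 9 genes move upward from CN4 to KN1, and *Nkain2* (20.0% to 70.9%) and *Ctnna2* (8.80% to 28.9%) move farthest to the right.

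The excess of KN1 rose with gene length over the whole transcriptome. Over XN1, the median log2 ratio of KN1 was −0.57 for genes under 10 kb, −0.34 at 10 to 30 kb, 0.11 at 30 to 100 kb, 1.02 at 100 to 300 kb, 1.96 at 300 to 1000 kb, and 2.32 at 1000 kb or more, with the 9 genes left out. The difference between genes of at least 300 kb and genes under 30 kb was 2.00 for KN1 over XN4, 2.46 over XN1, and 2.38 over CN4. The same difference was 0.31 for XN4 over XN1, 0.23 for XN4 over CN4, and −0.12 for XN1 over CN4, so only the comparisons with KN1 showed a trend of this size. The trend was also present in the thinned shares of cells, at 2.23, 2.58, and 2.39. Of 567 other genes of at least 300 kb, 53.1% were 2-fold higher in KN1 than in all other lines, to be read beside the 6 of 9 counted among the members. The settings with which the KN1 library was counted, introns included, are not given in the sources used here, and their part in this trend was not tested.

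Read beside genes of like length, the members split. *Nkain2*, *Ctnna2*, *Nlgn1*, and *Lsamp* were above the median of their length class in all 3 comparisons. Other genes of a class lie above its median as often as below. The share of them above it in all 3 comparisons, which have KN1 in common, was not counted. *Nkain2* exceeded the class median by 7.03 over XN4, 4.74 over XN1, and 2.93 over CN4, and *Ctnna2* by 4.83, 5.69, and 2.09. These genes lay above 98.1%, 100%, and 98.1% and above 94.3%, 100%, and 94.3% of the 53 other genes of 1000 kb or more. Through the filter, however, the capture of *Ctnna2* had to differ over XN1. *Nlgn1* exceeded its class by 5.84 over XN4 and 4.52 over XN1 but by 0.01 over CN4, where it lay above 50.2% of the 516 genes of its class. *Lsamp* was 0.61 above its class over CN4.

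*Nrxn3* and *Csmd1* changed sides between comparisons. *Nrxn3* exceeded its class median by 2.72 over XN4 and by 2.41 over XN1, where it lay above 100% of the 53 genes, and differed from it by −0.59 over CN4. *Csmd1* exceeded its class by 0.98 over XN4 and 0.74 over XN1, and *Opcml* by 0.71 over XN4, while both were below it over CN4 (−1.69 and −0.93). *Cadm2* was within 0.01 of its class over XN1 and below it over XN4 (−0.47) and CN4 (−0.82). *Ntm* was below its class in every comparison (−3.53, −0.90, and −1.33), and *Opcml* over XN1 was lower than all 53 genes of its class (−4.41). In thinned shares of cells, *Ctnna2* and *Nkain2* were the members above their class in all 3 comparisons.

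**Figure D4:**
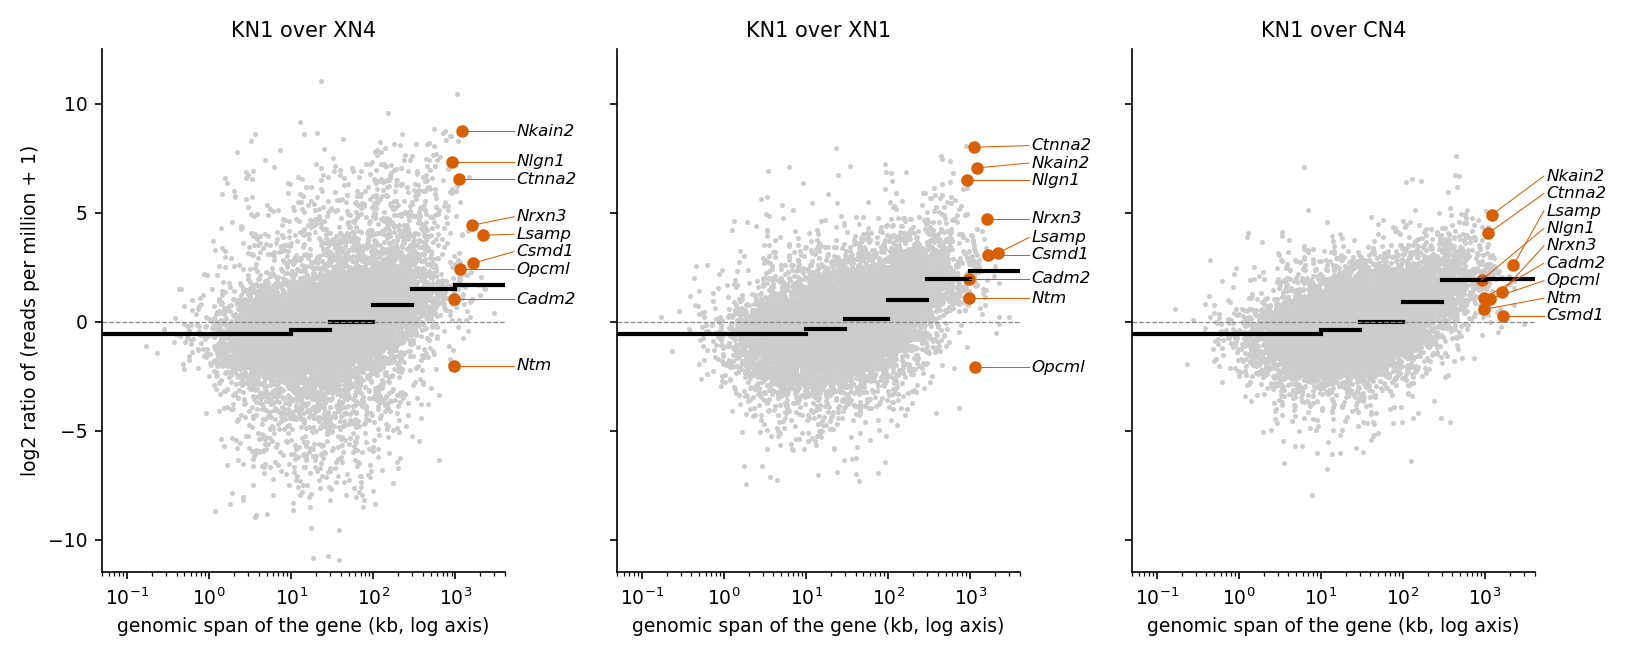
Log2 ratio of (RPM + 1) of KN1 over XN4, XN1, and CN4 against the genomic span of each gene (kb, log axis); grey points are all genes compared, black bars the class medians without the 9 genes, and orange points the 9 genes. The class medians rise to 1.70, 2.32, and 1.97 for genes of 1000 kb or more; *Nkain2* and *Ctnna2* lie far above them in every panel, and *Ntm* over XN4 and *Opcml* over XN1 lie below 0.

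Among the lines other than KN1 the length trend was small, and the members still differed. CN4 was at least 2-fold higher than XN1 for 5 of the 9 genes, where 8.09% of 12518 genes were, and at least 2-fold higher than XN4 for 7 of 9, where 15.5% of 13421 genes were. *Cadm2* and *Ctnna2*, captured in under 1% of XN1 cells, passed the filter over XN1 only through CN4, so their capture had to differ there. Over XN1 the 5 were *Nlgn1* (log2 ratio 4.57), *Ctnna2* (3.94), *Nrxn3* (3.35), *Csmd1* (2.78), and *Nkain2* (2.15). *Lsamp* (0.57), *Ntm* (0.50), and *Cadm2* (0.88) did not reach 2-fold, and *Opcml* was lower in CN4 (−3.13). The class medians for genes of 300 to 1000 kb and of 1000 kb or more were 0.21 and 0.12 in this comparison, with upper quartiles of 0.77 and 0.87. Over XN4 the class medians were −0.23 and −0.26, with upper quartiles of 1.19 and 0.90. Other genes of 300 to 1000 kb thus passed 2-fold over XN4 more often than the 15.5% of all genes. *Nlgn1*, captured in at least 1% of the cells of both lines, lay above 99.5% of the genes of its class.

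The thinned shares of cells pointed the same way for these 5 genes, with log2 ratios of CN4 over XN1 of 4.19 for *Nlgn1*, 4.65 for *Ctnna2*, 3.57 for *Nrxn3*, 2.22 for *Csmd1*, and 1.90 for *Nkain2*. The neurexin-neuroligin pair, *Csmd1*, and *Nkain2*, which passed the filter in both lines, were higher in the CHIR line than in the XAV line XN1 by reads and by cells. The value of *Ctnna2* is a description of a gene that the filter admitted through CN4. Over XN4, CN4 was 2-fold higher for the same 5 and for *Lsamp* (1.39) and *Opcml* (1.38), and lower for *Ntm* (−2.59). Between the XAV lines, XN4 was at least 2-fold higher for *Ntm* (3.09) and *Ctnna2* (1.48), and lower for *Opcml* (−4.51) and *Nkain2* (−1.68), with *Ctnna2* and *Cadm2* again past the filter through XN4 alone. XN4 differed from the other lines in its progenitor and collagen markers, as given above, and the part of this in its values was not tested.

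The members varied within each line with the share of reads from other long genes. Cells thinned to 3200 reads were put in 4 equal groups by the share of reads from non-member genes of at least 300 kb. In KN1 the median of that share rose from 7.34% in the lowest group to 19.1% in the highest. Reads of the 9 genes rose with it, from 25.9 per 10000 reads (25.3 to 26.5) through 61.6 and 79.6 to 97.9 (96.7 to 99.1), and the cells with a member read from 76.2% to 98.2%. Median genes per cell fell by contrast, from 807 to 708. Both measures come from the same reads of a cell, so this is a description of the cells.

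The lowest group of KN1 was above the highest group of every other line in its member reads. In CN4 member reads rose from 3.96 to 12.9 per 10000 reads, while the long-gene share rose from 2.09% to 3.97%. In XN1 they rose from 3.17 to 6.99 and in XN4 from 1.70 to 5.18, where the long-gene share of the highest group was 6.13%. Within KN1, *Nkain2* was captured in 46.6% of cells of the lowest group and 84.0% of the highest, *Ctnna2* in 15.3% and 37.7%, *Nlgn1* in 18.4% and 43.7%, and *Lsamp* in 37.9% and 70.6%. *Cadm2* (2.00% and 2.47%), *Ntm* (2.94% and 3.77%), and *Opcml* (4.83% and 5.54%) changed little. In XN1, *Opcml* went from 32.1% to 54.1%, and in XN4, *Ntm* went from 17.3% to 29.6%.

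**Figure D5:**
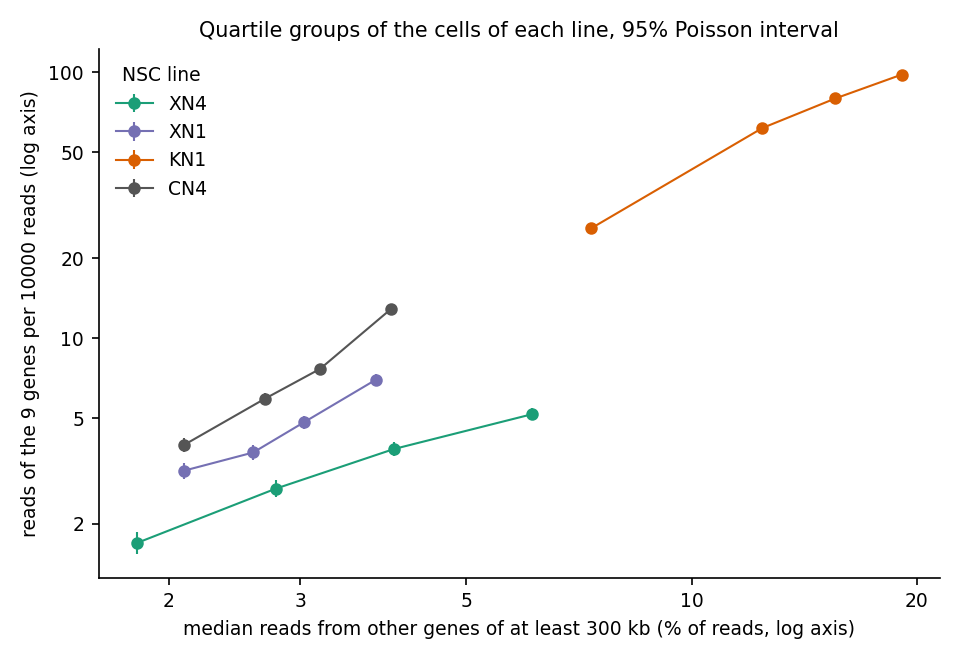
Reads of the 9 genes per 10000 reads (log axis) in 4 equal groups (quartiles) of the cells of each line, against the group's median share of reads from other genes of at least 300 kb (%, log axis); bars are 95% Poisson intervals and each line is 1 library. The values rise within each line, from 25.9 to 97.9 in KN1 and from 3.96 to 12.9 in CN4.

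Quartile groups by the *Malat1* share of reads, a transcript kept in the nucleus, gave like values. In KN1 member reads went from 31.3 per 10000 where *Malat1* took a median of 0.750% of reads to 99.2 where it took 5.91%, and in CN4 from 4.42 at 0.0625% to 12.6 at 0.656%. The part of nuclear RNA in the difference between KN1 and CN4 was not tested. Cells with a read of *Mki67*, *Top2a*, or *Hmgb2*, which mark dividing cells, had 66.1 member reads per 10000 in KN1 and 3.30 in XN4, against 66.4 and 3.39 in the other cells, with overlapping intervals. In XN1 they had fewer, 4.38 (4.18 to 4.58) against 4.91 (4.73 to 5.10), as they did in CN4, 7.13 (6.94 to 7.33) against a value with the interval 8.63 to 9.37. In KN1 *Ctnna2* was captured in 33.0% of the cells with such a read and 23.9% of those without, at a median of 842 and 697 genes per cell.

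The relatives of the 9 genes were read by length. Among 14 of 16 family relatives compared over XN1, 9 were 2-fold higher in KN1 and 2 lower, where 23.8% of all genes were lower. Of the 9, 3 were captured in under 1% of XN1 cells and passed the filter only through KN1, so their capture had to differ. All 7 relatives of at least 300 kb were among the higher, where 80.4% of the other genes of that length were, as were 2 of the 7 shorter ones, against 20.4% of the shorter genes. The long ones included *Negr1*, *Cadm1*, *Csmd2*, and *Nkain3*. Over CN4 the long relatives were higher in 5 of 7, against 76.6% of genes of that length, and the 9 shorter ones in 1, against 16.6%, with 3 lower, where 22.0% of all genes were. These shares were near those of other genes of like length. *Nrxn2*, with a span of 125 kb, was at 62.5, 193, 27.1, and 47.7 RPM in XN4, XN1, KN1, and CN4, lowest in KN1.

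The pairs within families went different ways. *Nlgn2*, a neuroligin of 14.7 kb, was at 181, 79.9, 87.1, and 105 RPM in XN4, XN1, KN1, and CN4, with XN4 highest where *Nlgn1* was lowest. *Nlgn3*, of 26.8 kb, was at 3.95, 0.726, 49.1, and 37.3 RPM, higher in KN1 and CN4 than in both XAV lines as *Nlgn1* was. *Negr1*, an IgLON of 755 kb, was at 9.77, 71.8, 482, and 99.1 RPM and followed the order of *Lsamp*, while *Iglon5*, of 17.2 kb, was at 30.7, 5.50, 3.56, and 19.1 and followed none of the other IgLON genes. *Ctnna1*, the α-catenin of most tissues, was at 220, 176, 96.4, and 199 RPM, lowest in KN1 where *Ctnna2* was highest. *Nkain3* (660 kb) was at 4.81, 22.2, 1109, and 86.7 RPM and was close to *Nkain2* in its order, and the shorter *Nkain1* (42.6 kb) was also highest in KN1, at 54.9 against 3.32 to 8.20.

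*Csmd2* (580 kb) was at 1.06, 0.830, 78.2, and 2.40 RPM, so KN1 led it over CN4 by 4.54 on the log2 scale while *Csmd1* differed by 0.28. *Csmd3* (1211 kb) resembled *Cadm2*, with 8.42 RPM in KN1 and 90.1% of capturing KN1 cells at a single read. *Cadm1* (327 kb) was at 3.32, 68.4, 213, and 208 RPM, with no gap between KN1 and CN4 in reads, and was captured in 19.3% and 57.5% of their cells.

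Of 54 other synaptic adhesion genes, 43 were compared over XN1, and 21 were 2-fold higher in KN1 and 4 lower, 18 of the 21 being among the 26 of at least 300 kb, where 80.4% of genes of that length were higher. Of the 21, 9 passed the filter only through KN1 and had to differ in capture, as did 1 of the 4 through XN1. Their median log2 ratio was 1.00 over XN1, 1.47 over XN4, and 1.17 over CN4, below that of the 9 members over each line, but 17 of the 43 spanned under 300 kb and none of the members did. Among the highest ratios over XN1 were those of *Tenm3* (6.84) and *Dscam* (5.74). *Cntn6* was at 55.5 RPM in KN1 and not listed in XN1. It entered the 21 and the median over XN1 with 0 RPM there, and its ratio is not printed. The lowest were *Lrrc4b* (−1.19), *Flrt2* (−1.80), and *Tenm4* (−3.96), where *Flrt2*, captured in 0.503% of KN1 cells, passed the filter only through XN1. *Tenm4*, a teneurin of 740 kb at 203 RPM in XN1 and 12.2 in KN1, was like *Opcml* a long gene that XN1 led.

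Compact genes of the synaptic vesicle and scaffold served as a contrast in length, with a median span of 27.6 kb. Over XN1, 5 of 13 compared were 2-fold higher in KN1, against 23.2% of all genes, and 1 was lower, with a median log2 ratio of −0.14. Over CN4 the numbers were 3, against 19.4% of all genes, and 2, with a median of 0.28. *Snap25*, a vesicle fusion protein gene, was at 0.457, 12.3, 77.2, and 29.2 RPM in XN4, XN1, KN1, and CN4. *Syt11* was at 26.9, 257, 232, and 692 and *Vamp2* at 103, 96.5, 87.7, and 68.2, so neither was highest in KN1.

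The 5 genes whose levels over the 4 lines were nearest to the median profile of the 9 members were *Thrb*, *Zfp536*, *Meis2*, *Mir670hg*, and *Prkg1*, at distances of 0.401 to 0.510 in centred log2(RPM + 1) among 13793 genes. *Meis2* was at 27.9, 28.3, 602, and 126 RPM, and *Prkg1*, of 1201 kb, at 31.3, 26.0, 516, and 98.2. No member came within that distance of the shared profile, the closest being *Lsamp* at 0.962 and the farthest *Opcml* at 4.61 and *Ntm* at 4.61, so the median profile described no single member closely.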

How the data were processed

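Single-cell libraries of 4 NSC lines were made with the BD Rhapsody WTA kit, 1 per line. The authors deposited a table of natural log values for each line, ln(1 + 10000 × reads of the gene / reads of the cell), made with Seurat 4.3.0 per the labels. For XN4, XN1, and CN4 they also deposited read counts per gene and cell; per the file headers these came from version 1.12.1 of the pipeline with the GRCm38 genome, GENCODE vM19, refined cell calling, and introns included. A reads-per-cell table of KN1 was not used here, and for the log tables the authors left out ribosomal protein and mitochondrial transcripts and drew 4000 cells per line at random. The tables hold 3448 to 3975, and what removed the rest is not given in the sources used here. Whole reads were recovered from the log values within 0.01; 100% were whole, and in XN4, XN1, and CN4 0 of the values compared differed from the count tables. Counts and natural log values were thus the units used, and no test was run.

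Reads were summed per line and given as RPM of the log tables, which list 0 ribosomal protein and 0 mitochondrial genes, with exact Poisson intervals (95%), and shares of cells with exact Clopper-Pearson intervals. For comparisons of shares each cell was thinned to 3200 reads. Cells with fewer were dropped, 543 of XN4, 776 of XN1, 579 of KN1, and 290 of CN4. Log2 ratios used a pseudocount of 1 RPM (0.1 percentage points for shares), genes in at least 1% of the cells of either line, and a fold of 2. Spans came from GENCODE vM21 and start windows from RefSeq. Named genes were the members, 16 family relatives, the 3 highest and 3 lowest KN1 to XN1 ratios of 54 other synaptic adhesion genes, examples of 15 vesicle and scaffold genes, and the 5 nearest profiles. The members and all lists were chosen with earlier results of these data known. Python 3.11.15, NumPy 2.4.6, SciPy 1.17.1, and pandas 2.3.3 were used, and scripts were tested on simulated data. Alternatives were another level measure, median centring, a pseudocount of 5, leaving out the 6% deepest cells, no filter, thinned shares, and length as the longest transcript. The 2 comparisons of CN4 with the XAV lines were added after seeing the data. Values of some single genes of these lists are not reported here.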

Additional observations from a re-analysis of the deposited data

How the results depend on the processing

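With 1 library per line, no difference between lines has a replicate check. No paired analysis was possible because each line was a single library. The number of members 2-fold higher in KN1 than in all other lines was 6, stayed at 6 under the other settings of levels except for 5, without *Cadm2*, with a pseudocount of 5, and was 2 by thinned shares of cells; the number above the class median in all comparisons was 4. That number was 3, without *Nlgn1*, by the mean over cells and without the deepest cells, 2 by thinned shares, and 6, with *Cadm2* and *Nrxn3* added, with length as the longest transcript. The median log2 ratio of the members over XN4 was 3.44 by the mean over cells, 4.09 after median centring, 3.57 with a pseudocount of 5, 3.83 without the deepest cells, and 1.59 by thinned shares. Over XN1 it was 2.94 by the mean over cells and 2.32 by thinned shares, and over CN4 0.21 by thinned shares. The length trend over XN4, XN1, and CN4 was 1.69, 2.41, and 2.27 by the mean over cells, 1.53, 1.84, and 1.78 with a pseudocount of 5, 1.96, 2.49, and 2.36 without the deepest cells, 1.95, 2.32, and 2.28 without a filter, 2.23, 2.58, and 2.39 by thinned shares, and 1.08, 1.24, and 1.03 with length as the longest transcript. Cells with a member read were 46.5%, 52.4%, 86.5%, and 76.2% in XN4, XN1, KN1, and CN4 where 2 reads were asked for, and 45.6%, 64.8%, and 75.7% in XN4, XN1, and CN4 after thinning. In all 18157 cells of the CN4 reads-per-cell table the share was 90.7%. The counts of members that CN4 led over XN1 and XN4 stayed within 1.5 times under these settings; these 2 comparisons, not the settings, were added after seeing the data. The members captured in under 1% of XN1 cells rested on few reads, 28 for *Cadm2* and 25 for *Ctnna2*. What set the change from reads to shares of cells was not tested.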
